A study of Homo sapiens with 4 samples.

Results

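The genes described here are 10 core genes of the NF-kB system, found by exact symbol among the 41507 genes of the gene table. The 5 subunits are NFKB1, NFKB2, REL, RELA and RELB. The other 5 restrain or modify the pathway and are NFKBIA, NFKBIE, NFKBIZ, BCL3 and TNFAIP3. Each of the 10 had a value in each of the 8 libraries and passed the minimum of 1 RPKM (reads per kilobase of exon, scaled to the mapped reads of the library) on average over them, which 9521 genes passed. These 9521 genes are the background against which the 10 are read.

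RNA was sequenced from SU-DHL-5 and Toledo, established human cell lines of diffuse large B-cell lymphoma (DLBCL). The 4 groups were SU-DHL-5 with DMSO, SU-DHL-5 with JQ1, Toledo with DMSO and Toledo with JQ1, with JQ1 at 1 µM and DMSO as the solvent control, and each group was 1 sample (n = 1). JQ1 blocks the bromodomains of the BET proteins, which bind acetylated chromatin and help transcription. The labels give 6 h of treatment and the study's legend gives a longer time, which was not settled here. Each sample had 2 libraries, and nothing in the labels says that they came from separate cultures, so they were averaged and counted as 1 sample. No test across samples was possible and no p-value is given.

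The libraries held 14617583 to 17679831 mapped reads. The B-cell lineage was checked with 6 markers, each at 1 RPKM or more in each sample, which summed to 884 to 999 RPKM in SU-DHL-5 with DMSO and 885 to 947 in Toledo with DMSO. With JQ1 these sums were lower, at 629 to 637 and 609 to 627 RPKM. CD22 and MS4A1 were among the markers below 0.5 of the DMSO level in both lines. Others were not, with log2 JQ1/DMSO ratios for SU-DHL-5 and Toledo of 0.01 and -0.28 for CD79B and -0.64 and 0.27 for PAX5. Libraries overlapped for CD79B in SU-DHL-5 and for PAX5 in Toledo. The 8 markers of T cells, NK cells and myeloid cells summed to 1.40 RPKM at most in any library, with CD2 listed at 0 throughout. CD3E was the highest of them in SU-DHL-5 with DMSO, at 1.09 and 0.93 RPKM. It read 0.12 and 0.05 RPKM there with JQ1 and 0 in Toledo. The part of the lower B-cell marker sums in the results below was not tested. In bulk RNA, fewer cells that hold a transcript and less of it per cell cannot be told apart. The second library of Toledo with DMSO stood apart by gene length, with a median log2 ratio to the first of -0.09 over genes of under 2000 exon bases and 0.24 over genes of more than 4000. NFKB1, NFKBIZ and TNFAIP3, with 4155, 4197 and 4972 exon bases, were higher in that library, so their Toledo values are also given from the first libraries alone. The part of length in their values was not tested.

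NF-kB is a family of dimeric transcription factors that hold a shared DNA-binding domain. In the canonical pathway, dimers of RELA or REL with the processed product of NFKB1 are held in the cytoplasm by IkB proteins until the IKK complex marks these for destruction. In the non-canonical pathway, the kinase NIK drives processing of the NFKB2 precursor, and its product pairs with RELB. Many NF-kB genes, among them NFKBIA, NFKB2 and TNFAIP3, are themselves known NF-kB targets, and the pathway is well known for survival signals in B-cell lymphoma.

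Stretches of promoter that hold matches to the kappaB motif are shown for NFKB2, NFKB1, REL, TNFAIP3 and NFKBIA. Those of NFKBIZ are given by position only. The sources used here held 13 windows at RefSeq starts for 8 members (GRCh38.p14), from 250 bases before a transcription start to 50 bases from it on. They held none for RELB and NFKBIE, which were not searched. The kappaB motif of 10 bases was searched on both strands, with overlapping matches counted once. A match was present in 9 of the 13 windows, beside 11.3% of 35116 windows of all genes. By gene, 7 of the 8 members had a match in a window, and the share of all genes with one was not counted. Neither of the 2 RELA windows held one, and BCL3 had its match after the start. Capitals mark the matched bases in each stretch of 30 bases, written 5′ to 3′ on the strand of the gene.
NFKB2, second start, chr10:102394461-102394490 (+): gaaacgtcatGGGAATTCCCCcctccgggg
NFKB2, second start, chr10:102394490-102394519 (+): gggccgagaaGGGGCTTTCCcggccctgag
NFKB2, the third start, chr10:102395519-102395548 (+): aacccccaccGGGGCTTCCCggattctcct
NFKB2, the third start, chr10:102395674-102395703 (+): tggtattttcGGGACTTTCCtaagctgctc
NFKB1, chr4:102501300-102501329 (+): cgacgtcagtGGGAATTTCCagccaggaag
REL, chr2:60881517-60881546 (+): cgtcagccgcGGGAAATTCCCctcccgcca
TNFAIP3, chr6:137867188-137867217 (+): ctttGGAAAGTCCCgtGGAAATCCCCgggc

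The matches of NFKB2 began 107 and 78 bases before its second start and 176 and 21 bases before the third RefSeq start. Near that start the transcript table places a group of 4 transcripts, which begin at chr10:102395596 to chr10:102395675. The match 21 bases before the RefSeq start thus lies past the starts of these transcripts. The window of the first NFKB2 start held none. The match of NFKB1 began 49 bases before the first of its RefSeq starts, and the window of its other start held none. That of REL began 47 bases before its start. Those of TNFAIP3 began 67 and 55 bases before its RefSeq start, chr6:137867259. The first TNFAIP3 transcripts of the transcript table begin at chr6:137867188, so both matches lie past that start. NFKBIZ had a match in each of its 2 windows, 223 and 239 bases before the starts. At least 2 matches were found in 0.994% of all windows, and here in those of the second and the third NFKB2 start and of TNFAIP3. A match is a description of these letters and not a measured binding site. The full 250 bases before the NFKBIA start are shown because NFKBIA was the most abundant of the 10 genes in 3 of the 4 samples, and the match in capitals began 81 bases before the start.
NFKBIA, chr14:35404750-35404999 (-): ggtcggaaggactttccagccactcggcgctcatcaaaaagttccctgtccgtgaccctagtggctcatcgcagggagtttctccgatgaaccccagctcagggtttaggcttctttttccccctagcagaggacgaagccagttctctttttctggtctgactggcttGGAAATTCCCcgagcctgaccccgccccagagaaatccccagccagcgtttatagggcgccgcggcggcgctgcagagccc

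With JQ1, none of the 10 genes passed 2-fold in either line. A count of 0 of 10 was found below 0.5 of DMSO in SU-DHL-5, where 5.44% of background genes were below, and 0 of 10 in Toledo, where 6.94% were. Likewise 0 of 10 were above 2, against 1.74% and 1.61% of background genes. NFKBIE, which encodes IkB-epsilon, was the one member past 1.5-fold, and it was so in both lines, as were 8.54% of background genes in the same direction. That call rests on the mean of the libraries, since the second libraries alone were within 1.5-fold. None was above 1.5 of DMSO, beside 8.7% of background genes in SU-DHL-5 and 6.61% among Toledo values. That count of 0 rests on the mean too, since REL at 0.75 and NFKBIZ at 0.90 were above 1.5 in Toledo from the first libraries alone. The subunits of the non-canonical pathway, NFKB2 and RELB, were lower in SU-DHL-5 and nearer to DMSO in Toledo, while NFKB1 and RELA stayed within 0.13 on the log2 scale of DMSO in both lines.

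Ratios are log2((JQ1 + 0.1)/(DMSO + 0.1)) of the mean RPKM of the 2 libraries. Since RPKM is scaled to the mapped reads of each library, a ratio is relative to all mapped RNA. A change of total RNA per cell would not show in it. Brackets give the 95% exact binomial interval of the log2 ratio of recovered reads, which covers counting error only. The median over the 10 members was -0.13 for SU-DHL-5 and -0.07 for Toledo, beside medians of 0.01 and -0.06 over the background. Between the libraries of 1 sample with DMSO, 1.22% of background genes for SU-DHL-5 and 1.71% for Toledo were past 1.5-fold.

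**Figure D1:**
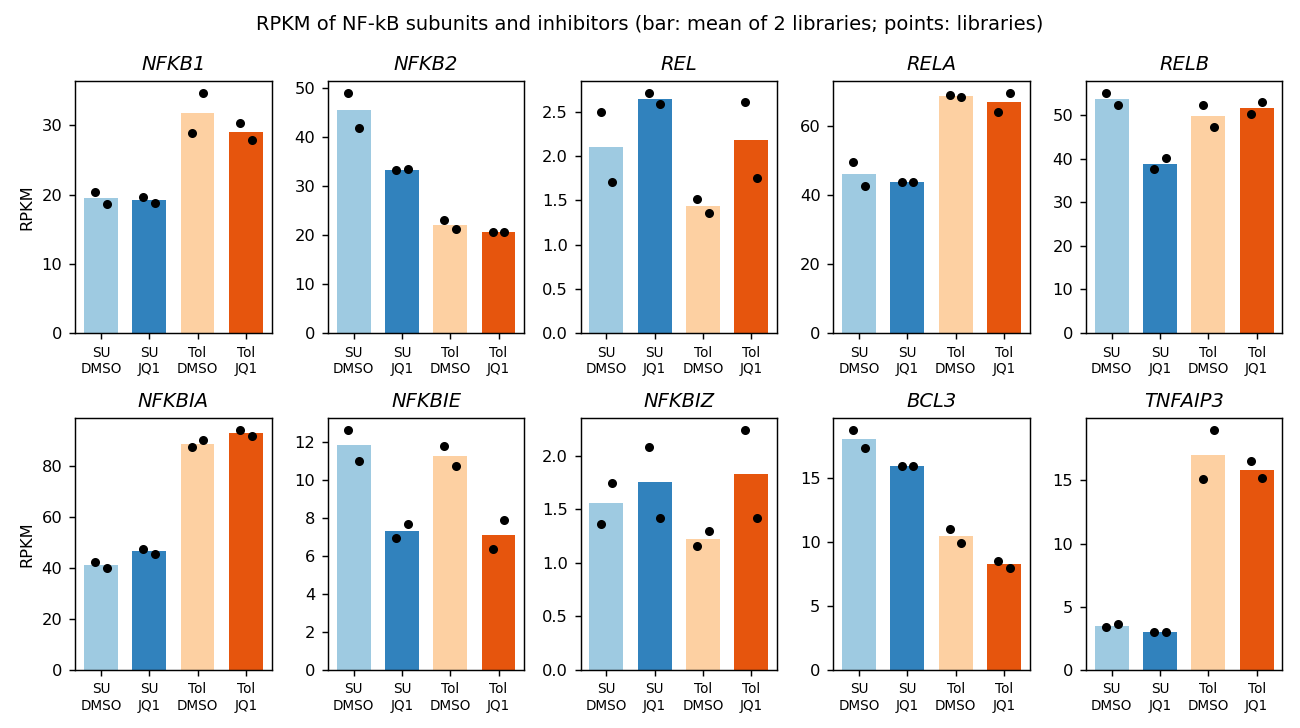
RPKM (vertical axis, linear, from 0) of each of the 10 genes in SU-DHL-5 (SU) and Toledo (Tol) with DMSO or JQ1. Bars are means of 2 libraries and points are libraries, and NFKBIE was lower with JQ1 in both lines, from 11.8 to 7.32 RPKM in SU-DHL-5 and from 11.3 to 7.11 RPKM in Toledo.

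NFKB1, the precursor and DNA-binding partner of the canonical pathway, spans chr4:102501329-102617302 (GRCh38, as for all genes below). In SU-DHL-5 it read 20.4 and 18.6 RPKM with DMSO and 19.6 and 18.8 RPKM with JQ1. In Toledo it read 28.9 and 34.7 RPKM with DMSO and 30.3 and 27.8 RPKM with JQ1. The libraries of DMSO and JQ1 overlapped in both lines. The log2 ratio was -0.02 (-0.09 to 0.06) for SU-DHL-5 and -0.13 (-0.19 to -0.06) for Toledo, where it was 0.07 from the first libraries alone.

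RELA, the main activating subunit of the canonical pathway, spans chr11:65653596-65662972. It read 49.5 and 42.6 RPKM with DMSO and 43.6 and 43.8 RPKM with JQ1 in SU-DHL-5. Toledo cells gave 68.9 and 68.4 RPKM with DMSO and 64.1 and 69.5 RPKM with JQ1. The libraries overlapped here too, and the log2 ratios were -0.08 for SU-DHL-5 and -0.04 for Toledo.

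REL, the subunit prominent in lymphoid cells, spans chr2:60881574-60944284 and was one of the lowest of the 10 genes. In SU-DHL-5 it read 2.50 and 1.71 RPKM with DMSO and 2.71 and 2.58 RPKM with JQ1. The Toledo values were 1.51 and 1.36 RPKM with DMSO and 2.62 and 1.75 RPKM with JQ1. Both JQ1 libraries were above both DMSO libraries in each line, as was so for 22.7% of background genes. Its log2 ratio was 0.32 (0.06 to 0.63) in SU-DHL-5, on 186 reads with DMSO and 225 with JQ1, and 0.57 (0.28 to 0.93) in Toledo, on 133 and 193 reads. From the first libraries alone the ratios were 0.11 and 0.75, and from the second alone 0.57 and 0.35. Its span overlaps that of PUS10, which averaged 2.36 RPKM over all libraries, and how reads of the overlap were counted is not given in the sources used here.

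NFKB2, the precursor of the non-canonical pathway, spans chr10:102394110-102402529. In SU-DHL-5 it read 49.0 and 41.9 RPKM with DMSO and 33.2 and 33.4 RPKM with JQ1, so neither JQ1 library reached either DMSO library. In Toledo it read 23.0 and 21.3 RPKM with DMSO and 20.5 and 20.7 RPKM with JQ1, again with no overlap but with a smaller gap. The log2 ratio was -0.45 (-0.50 to -0.38) for SU-DHL-5 and -0.10 (-0.18 to -0.03) for Toledo.

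RELB, the partner of processed NFKB2, spans chr19:45001449-45038198. In SU-DHL-5 it read 55.1 and 52.3 RPKM with DMSO and 37.6 and 40.3 RPKM with JQ1. Toledo cells gave 52.3 and 47.3 RPKM with DMSO and 50.2 and 53.0 RPKM with JQ1, and the libraries overlapped. Its log2 ratio was -0.46 (-0.54 to -0.40) for SU-DHL-5 and 0.05 (-0.02 to 0.11) for Toledo.

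The response of RELB was thus 0.52 higher in Toledo than in SU-DHL-5 on the log2 scale, and that of NFKB2 was 0.34 higher. The counting intervals of the lines did not overlap for these 2 genes and overlapped for the other 8. The width of an interval depends on the number of reads, and the share of background genes without overlap was not counted. NFKBIZ, on 174 to 249 reads, differed by 0.38, more than NFKB2, with overlapping intervals, and 25.9% of background genes differed by more. A larger absolute difference between the lines was found in 16.0% of background genes for RELB and 30.0% for NFKB2. None of these differences was tested across samples, since each line was 1 sample per condition.

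**Figure D2:**
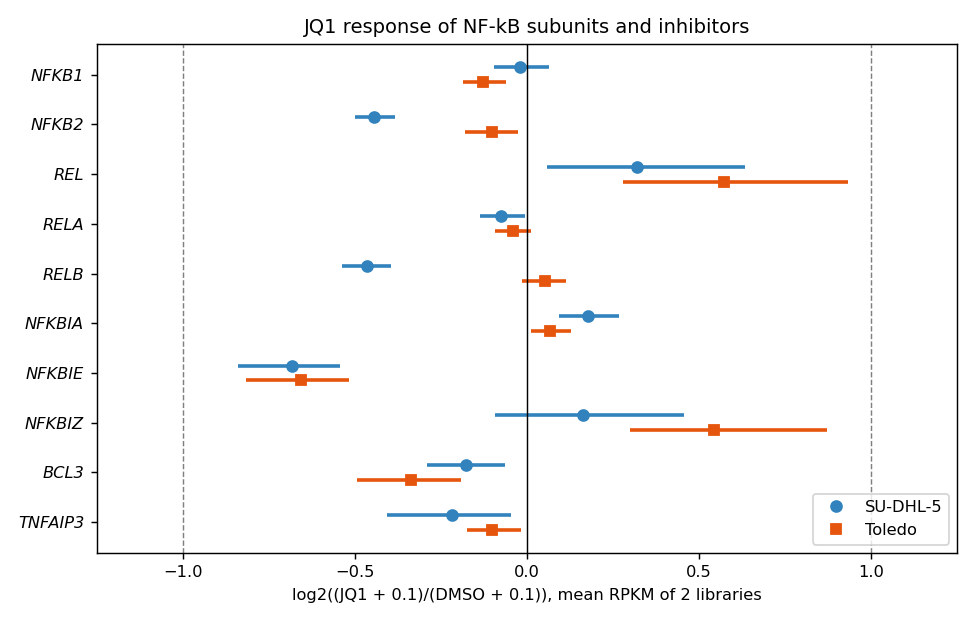
log2((JQ1 + 0.1)/(DMSO + 0.1)) of mean RPKM (horizontal axis) for each gene in SU-DHL-5 (circles) and Toledo (squares), with lines for the 95% exact binomial interval of the reads and dashed lines at 2-fold. RELB lies at -0.46 in SU-DHL-5 and at 0.05 in Toledo, and NFKBIE lies at -0.68 and -0.66.

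NFKBIA encodes IkB-alpha, the main inhibitor of RELA dimers and itself a rapid NF-kB target, and spans chr14:35401510-35404754. It read 42.3 and 39.9 RPKM with DMSO and 47.5 and 45.4 RPKM with JQ1 in SU-DHL-5. The Toledo values were 87.5 and 90.1 RPKM with DMSO and 94.3 and 91.8 RPKM with JQ1. Both JQ1 libraries were the higher in each line, by little. The log2 ratio was 0.18 (0.09 to 0.27) for SU-DHL-5 and 0.07 (0.01 to 0.13) for Toledo.

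NFKBIE, an inhibitor that holds REL and RELA dimers, spans chr6:44258166-44265788. It read 12.6 and 11.0 RPKM with DMSO and 6.95 and 7.69 RPKM with JQ1 in SU-DHL-5, on 994 and 586 reads. In Toledo it read 11.8 and 10.7 RPKM with DMSO and 6.34 and 7.87 RPKM with JQ1, on 987 and 594 reads. No JQ1 library reached a DMSO library. Its log2 ratio was -0.68 (-0.84 to -0.54) for SU-DHL-5 and -0.66 (-0.82 to -0.52) for Toledo, so the values with JQ1 were 1.61-fold and 1.58-fold lower. From the first libraries alone the ratios were -0.85 and -0.89, and from the second alone -0.51 and -0.44, which is lower by less than 1.5-fold. Below 1/1.5 of DMSO, the share of background genes was 12.0% for SU-DHL-5 and 16.1% for Toledo.

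BCL3 encodes a nuclear IkB protein that works with NFKB1 and NFKB2 homodimers, and it spans chr19:44742817-44760044. It read 18.8 and 17.4 RPKM with DMSO and 16.0 and 15.9 RPKM with JQ1 in SU-DHL-5. Toledo cells gave 11.0 and 9.90 RPKM with DMSO and 8.54 and 7.99 RPKM with JQ1. Both JQ1 libraries were lower in each line, with log2 ratios of -0.18 (-0.29 to -0.06) and -0.34 (-0.49 to -0.19).

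NFKBIZ encodes IkB-zeta, a nuclear cofactor of selected NF-kB targets, and spans chr3:101827990-101861025. It read 1.37 and 1.74 RPKM with DMSO and 2.08 and 1.42 RPKM with JQ1 in SU-DHL-5, where the libraries overlapped. The Toledo values were 1.16 and 1.29 RPKM with DMSO and 2.24 and 1.42 RPKM with JQ1, where JQ1 was the higher. The log2 ratio was 0.16 (-0.09 to 0.46) for SU-DHL-5 and 0.54 (0.30 to 0.87) for Toledo, on 214 and 231 reads and on 174 and 249 reads. From the first libraries alone the ratios were 0.57 and 0.90, and from the second alone -0.28 and 0.13. Its span overlaps that of NXPE3, which averaged 2.33 RPKM over all libraries, with the same limit as for REL.

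TNFAIP3, a ubiquitin-editing enzyme that switches off NF-kB signalling and is often lost in lymphoma, spans chr6:137867188-137883314. It read 3.36 and 3.62 RPKM with DMSO and 3.0 and 2.97 RPKM with JQ1 in SU-DHL-5, with no overlap. In Toledo it read 15.1 and 19.0 RPKM with DMSO and 16.5 and 15.2 RPKM with JQ1, with overlap. Its log2 ratio was -0.22 (-0.41 to -0.05) for SU-DHL-5 and -0.10 (-0.17 to -0.02) for Toledo. From the first libraries alone the Toledo ratio was 0.13, so its direction turned.

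Counted by libraries that do not overlap, 5 members were lower and 2 higher with JQ1 in SU-DHL-5, beside 37.3% and 41.1% of background genes. In Toledo 3 members were lower and 3 higher, beside 42.9% and 29.3%. The members lower in both lines were NFKB2, NFKBIE and BCL3, as were 29.1% of background genes. Those higher in both were REL and NFKBIA, as were 22.7% of background genes.

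The balance of the members within a library differed between DMSO and JQ1 in SU-DHL-5. The ratio of NFKB2 plus RELB to NFKB1 plus RELA plus REL, as RPKM, was 1.44 and 1.5 with DMSO and 1.07 and 1.13 with JQ1. In Toledo it was 0.757 and 0.657 with DMSO and 0.729 and 0.744 with JQ1, below SU-DHL-5 in each library. The 5 subunits summed to 157 to 176 RPKM in SU-DHL-5 with DMSO and 137 to 139 with JQ1, and to 173 to 175 and 168 to 173 in Toledo. The ratio of NFKBIA to NFKBIE RPKM was 3.35 and 3.63 with DMSO and 6.83 and 5.91 with JQ1 in SU-DHL-5. In Toledo it was 7.42 and 8.41 with DMSO and 14.9 and 11.7 with JQ1, so the JQ1 libraries were higher in both lines.

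Between the lines with DMSO, TNFAIP3 and NFKBIA were more than 2-fold higher in Toledo and NFKB2 more than 2-fold lower. This is 2 of 10 above 2, where 14.4% of background genes were, and 1 of 10 below 0.5, where 13.3% were. TNFAIP3 had the largest ratio of the 10 genes, 4.78-fold, with a log2 ratio of 2.26 (2.15 to 2.41), and 94.7% of background genes had a lower ratio. NFKBIA was 2.16-fold higher, with a log2 ratio of 1.11 (1.04 to 1.19). NFKB2 was 2.05-fold lower, with a log2 ratio of -1.04 (-1.10 to -0.97), so its counting interval crossed the threshold, and from the second libraries alone the ratio was -0.98, within 2-fold. The ratio of TNFAIP3 was 2.14 from the first libraries alone.

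The 2 canonical subunits of high level were higher in Toledo, NFKB1 with a log2 ratio of 0.70 (0.63 to 0.77) and RELA with 0.57 (0.52 to 0.64). The ratio of NFKB1 was 0.50 from the first libraries alone, within 1.5-fold. BCL3 at -0.78 (-0.91 to -0.66) and REL at -0.52 (-0.87 to -0.21) were lower in Toledo. RELB at -0.11 and NFKBIZ at -0.32 (-0.22 from the first libraries alone) were also lower in both Toledo libraries, and NFKBIE at -0.07 had overlapping libraries. In all, 5 members were lower and 4 higher with no overlap of libraries, beside 42.2% and 42.1% of background genes. Past 1.5-fold, 2 members (NFKB2 and BCL3) were lower and 3 (NFKB1, NFKBIA and TNFAIP3) higher, beside 23.4% and 25.2%. Each line was 1 sample per condition, so sample and line cannot be told apart. The DMSO samples of these ratios are also the controls of the JQ1 ratios, so NFKB2 being lower in Toledo and lower with JQ1 in SU-DHL-5 rests on the same SU-DHL-5 libraries.

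**Figure D3:**
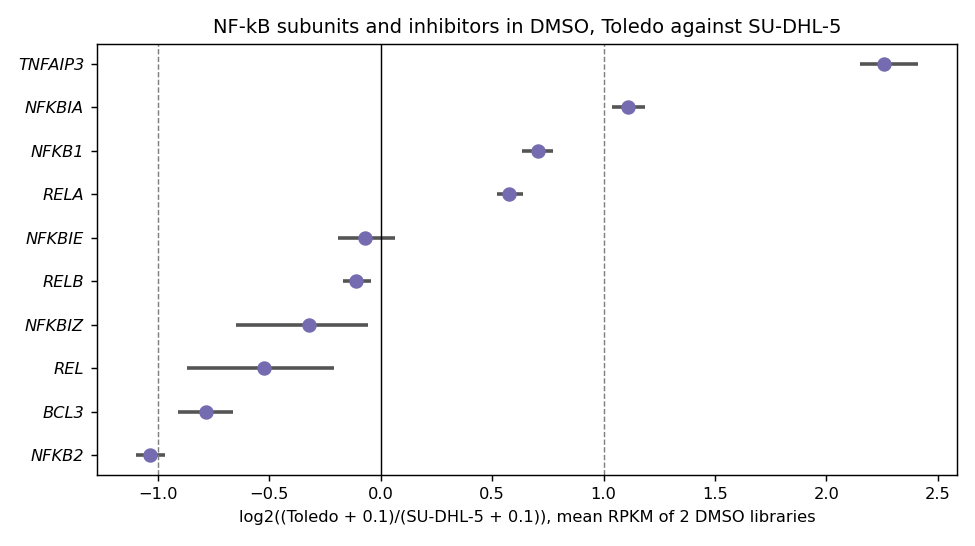
log2((Toledo + 0.1)/(SU-DHL-5 + 0.1)) of mean RPKM with DMSO (horizontal axis) for each gene, with lines for the 95% exact binomial interval of the reads and dashed lines at 2-fold. TNFAIP3 lies at 2.26 and NFKBIA at 1.11, and NFKB2 at -1.04.

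Since RPKM is per length, levels can be ordered across genes. In SU-DHL-5 with DMSO, RELB was highest at a mean of 53.7 RPKM, then RELA at 46.1, NFKB2 at 45.4 and NFKBIA at 41.1, of which RELA and NFKB2, and NFKB2 and NFKBIA, had overlapping libraries. NFKB1 at 19.5 and BCL3 at 18.1 overlapped, followed by NFKBIE at 11.8 and TNFAIP3 at 3.49, while REL at 2.10 and NFKBIZ at 1.55 overlapped. In Toledo with DMSO, NFKBIA was highest at 88.8 RPKM, followed by RELA at 68.7, RELB at 49.8, NFKB1 at 31.8, NFKB2 at 22.1 and TNFAIP3 at 17.1, each apart from the next. NFKBIE at 11.3 and BCL3 at 10.5 overlapped, and REL at 1.44 and NFKBIZ at 1.23 were lowest. With JQ1, NFKBIA was highest in both lines, at 46.4 RPKM in SU-DHL-5 and 93.1 RPKM in Toledo.

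The transcript table listed 33 transcripts of the 10 genes, of which 21 averaged 1 RPKM or more. Of these 21, 2 were below 0.5 of DMSO with JQ1 in both lines, beside 4.36% of 16526 transcripts, and no others were below it. In either line alone, 8.94% of transcripts in SU-DHL-5 and 11.0% in the Toledo samples were below 0.5. In each line 1 of the 21 was above 2, beside 4.94% of transcripts in either. In SU-DHL-5 it was the first TNFAIP3 transcript, with 0 and 28 reads with DMSO and 103 and 0 with JQ1, so its libraries overlapped. In Toledo it was the second NFKBIZ transcript, with 60 and 46 reads with DMSO and 137 and 96 with JQ1, a log2 ratio of 1.11 (0.86 to 1.55). The 2 below 0.5 were 1 transcript of NFKB2 and 1 of TNFAIP3. The NFKB2 transcript begins at chr10:102394578, the second start. It read 3.06 and 2.68 RPKM with DMSO and 0.504 and 0.350 RPKM with JQ1 in SU-DHL-5, on 292 and 42 reads. Toledo cells gave 3.15 and 2.86 RPKM with DMSO and 1.02 and 0.278 RPKM with JQ1, on 319 and 66 reads. No JQ1 library reached a DMSO library in either line, with log2 ratios of -2.49 (-3.23 to -2.26) and -2.05 (-2.61 to -1.82).

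The sums over the other NFKB2 starts had smaller ratios. Those from the first start, chr10:102394110, read 8.58 and 7.26 RPKM with DMSO and 4.28 and 3.68 RPKM with JQ1 in SU-DHL-5, and the log2 ratio was -0.97. In Toledo they read 4.06 and 3.42 RPKM with DMSO and 3.76 and 3.17 RPKM with JQ1, a log2 ratio of -0.11. The 4 transcripts from the third group of starts, chr10:102395596 to chr10:102395675, made up most of the RNA and had summed log2 ratios of -0.30 for SU-DHL-5 and 0.06 for Toledo. The second start gave 5.11% of NFKB2 transcript RPKM with DMSO and 1.04% with JQ1 in SU-DHL-5, whereas the Toledo shares were 11.0% and 2.55%. The transcripts share most of their exons, and the split of shared reads was uneven: the fifth NFKB2 transcript had 13 reads in the first and 384 in the second SU-DHL-5 library with JQ1. Transcript values are therefore less certain than gene values.

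**Figure D4:**
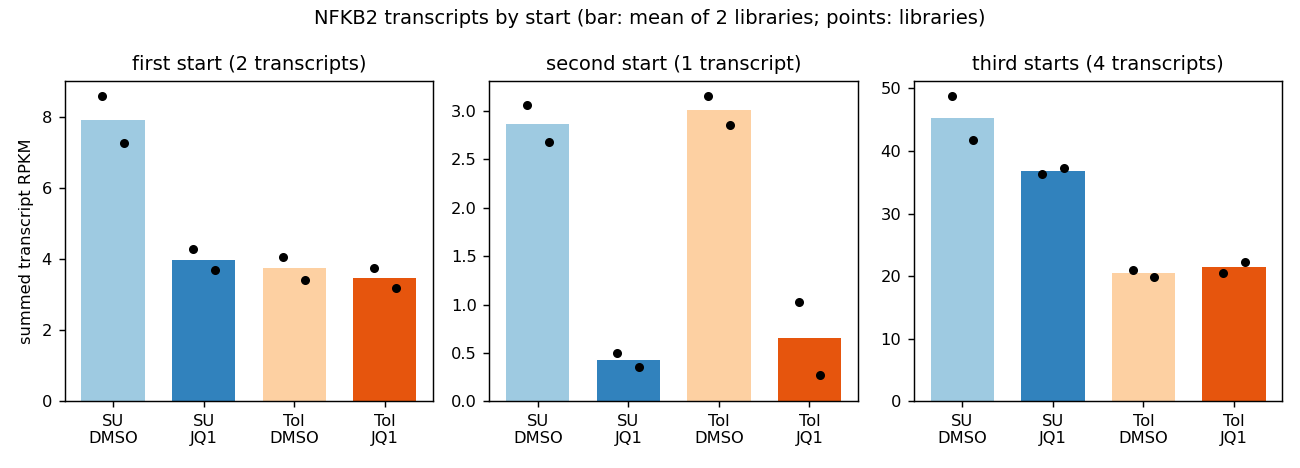
Summed RPKM (vertical axis, linear, from 0, its own scale in each panel) of NFKB2 transcripts from the first start, the second start and the third group of starts in SU-DHL-5 (SU) and Toledo (Tol) with DMSO or JQ1. Bars are means of 2 libraries and points are libraries, and transcripts of the second start read at least 2.68 RPKM with DMSO and at most 1.02 RPKM with JQ1.

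The TNFAIP3 transcript below 0.5 begins at chr6:137871035, downstream of the main start. Its libraries had 81 and 131 reads with DMSO and 3 and 0 reads with JQ1 in SU-DHL-5. In Toledo they had 144 and 262 reads with DMSO and 10 and 158 reads with JQ1, so the second JQ1 library was above the first DMSO library. Of RELB, the main transcript had log2 JQ1/DMSO ratios of -0.56 for SU-DHL-5 and -0.02 for Toledo, and another transcript 0.00 and 0.33. An NFKB1 transcript from chr4:102510930 had log2 JQ1/DMSO ratios of -0.79 (-1.0 to -0.62) for SU-DHL-5 and -0.46 (-0.60 to -0.33) for Toledo, while the gene as a whole was at -0.02 and -0.13. Another NFKB1 transcript, with 122 and 361 reads with DMSO and 356 and 243 with JQ1 in SU-DHL-5, was at 0.39 (0.21 to 0.56) there and at -0.04 (-0.17 to 0.10) in Toledo. NFKBIA and NFKBIE had 1 transcript each.

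Upstream of the members, all 15 kinases and adaptors that activate the pathway were in the background. In SU-DHL-5 1 was below 0.5 with JQ1 and none above 2, and in Toledo likewise 1 and none, a share near the 5.44% and 6.94% of background genes below 0.5. The median log2 ratio was 0.05 for SU-DHL-5 and 0.10 for Toledo.

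IKBKE, an IKK-related kinase, was the one below 0.5 in Toledo. It read 5.42 and 5.02 RPKM with DMSO and 2.11 and 2.43 RPKM with JQ1, a log2 ratio of -1.17 (-1.42 to -0.99). In SU-DHL-5 its log2 ratio was -0.93 (-1.10 to -0.77). RIPK1, a kinase and adaptor below the TNF receptor, had log2 JQ1/DMSO ratios of 0.37 for SU-DHL-5 and 0.63 for Toledo. MAP3K14, which encodes NIK, had 0.34 and 0.76. These genes have 5121 and 4468 exon bases. In Toledo the first and second libraries alone gave 0.91 and 0.37 for RIPK1 and 0.87 and 0.64 for MAP3K14.

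None of the 12 other inhibitors passed 2-fold in either line, with medians of 0.11 for SU-DHL-5 and 0.05 for Toledo. NFKBIB, which encodes IkB-beta, was the one of the 12 past 1.5-fold lower in both lines, a share near the 8.54% of background genes. From the second libraries alone its ratio was -0.44 for SU-DHL-5, lower by less than 1.5-fold, and -0.69 for Toledo. It read 20.0 and 17.3 RPKM with DMSO and 11.4 and 12.8 RPKM with JQ1 in SU-DHL-5, and the log2 ratio was -0.62 (-0.78 to -0.48). The Toledo values were 21.0 and 19.0 RPKM with DMSO and 10.9 and 11.7 RPKM with JQ1, a log2 ratio of -0.81 (-0.97 to -0.68). TAX1BP1, an adaptor of TNFAIP3, had log2 JQ1/DMSO ratios of 0.34 and 0.60. OTULIN, a linear deubiquitinase, had 0.44 and 0.17, and ITCH, a ubiquitin ligase that works with TNFAIP3, 0.29 and 0.10. The Toledo libraries of OTULIN and ITCH overlapped, and these genes have 7896 and 6545 exon bases.

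Of 27 listed target genes outside the members, 21 were in the background. In SU-DHL-5 8 were below 0.5 and none above 2, beside 5.44% and 1.74% of background genes. In Toledo 5 were below and 1 above, beside 6.94% and 1.61%. The median log2 ratio was -0.47 for SU-DHL-5 and -0.29 for Toledo. Some of these genes passed the minimum through 1 line or group alone, and some had no reads or few in the other line. Targets were then taken at 1 RPKM or more on average over the line's own DMSO and JQ1 libraries. A gene could still pass this minimum through its DMSO libraries alone. Of targets so chosen, 7 of 13 in SU-DHL-5 and 4 of 17 in Toledo were below 0.5, beside 5.54% and 6.81% of genes so chosen. The medians were -1.05 and -0.09. Above 2 were 0 of 13 and 1 of 17, beside 1.68% and 1.7%. The target above 2 was GADD45B, a stress gene named after its values were seen, with log2 ratios of 0.74 for SU-DHL-5 and 1.04 for Toledo.

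The targets below 0.5 in both lines were LTA, LTB, CD80 and CFLAR, beside 3.18% of background genes. CD80 was under 1 RPKM in SU-DHL-5 and CFLAR in Toledo, so that LTA and LTB were the 2 called in both lines with the minimum set in each line. LTA passed that minimum through its DMSO libraries, being under 1 RPKM with JQ1 in both lines. LTB, which encodes the membrane anchor of lymphotoxin, read 44.6 and 40.5 RPKM with DMSO and 13.2 and 15.1 RPKM with JQ1 in SU-DHL-5, and 12.6 and 12.9 with DMSO and 5.02 and 4.78 with JQ1 in Toledo. The log2 ratios were -1.59 (-1.76 to -1.43) and -1.36 (-1.67 to -1.10). LTA, its soluble partner, read 4.56 and 4.33 RPKM with DMSO and 0.604 and 0.298 RPKM with JQ1 in SU-DHL-5, and 3.91 and 4.45 with DMSO and 0.689 and 0.733 with JQ1 in Toledo. Its log2 ratios were -3.04 (-3.96 to -2.65) and -2.40 (-3.09 to -2.05).

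CD80, a costimulatory ligand of T cells, had 57 reads with DMSO and 3 with JQ1 in SU-DHL-5 and 377 and 29 reads in Toledo, where its RPKM was 4.02 and 4.04 with DMSO and 0.379 and 0.270 with JQ1. The intervals of the log2 read ratio were -6.50 to -2.56 and -4.23 to -3.09. CFLAR, which encodes the inhibitor of death-receptor caspase activation, read 3.0 and 2.75 RPKM with DMSO and 1.10 and 1.17 RPKM with JQ1 in SU-DHL-5. In Toledo it read 0.589 and 0.759 RPKM with DMSO and 0.203 and 0.152 RPKM with JQ1. The log2 ratios of CFLAR were -1.27 for SU-DHL-5 and -1.48 for Toledo, and at low levels the added 0.1 RPKM makes the ratio smaller than that of the reads.

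**Figure D5:**
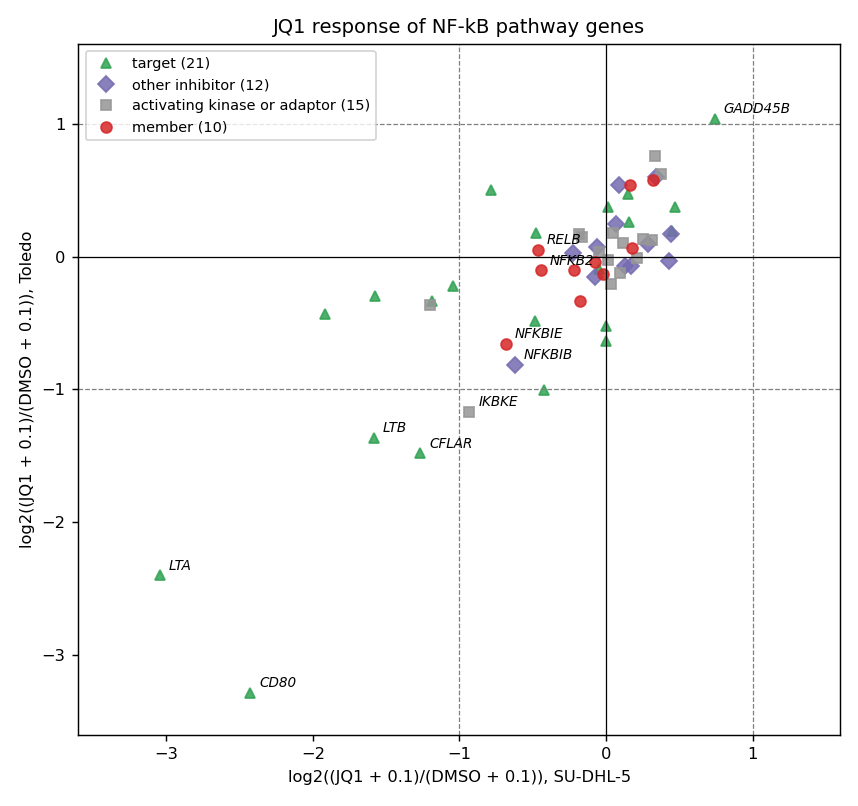
log2((JQ1 + 0.1)/(DMSO + 0.1)) of mean RPKM in SU-DHL-5 (horizontal axis) and Toledo (vertical axis) for the 10 members (circles), 15 kinases and adaptors (squares), 12 other inhibitors (diamonds) and 21 targets (triangles) of the background, with dashed lines at 2-fold. All 10 members lie within 2-fold, and LTA, LTB, CD80 and CFLAR lie below 0.5 in both lines.

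Genes with the pattern most like each member were found by the root mean square difference of log2(RPKM + 0.1), centred on each gene's mean, over the 4 samples. The nearest gene was TMEM248 for NFKB1, UGGT1 for NFKB2, NIT1 for REL, NUCKS1 for RELA and USP3 for RELB, with differences of 0.011 to 0.017. For NFKBIA it was INTS12, for NFKBIE MAP4K2, for NFKBIZ LOC100996740, for BCL3 ZFP36L1 and for TNFAIP3 BRF1, with differences of 0.012 to 0.033. Over 4 samples many genes lie close, with 233 background genes within 0.1 of NFKB1 and 229 of RELA. For RELB there were 41 such genes, for NFKB2 42 and for TNFAIP3 3, the fewest of the 10.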

How the data were processed

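RNA of 4 samples, 1 per group, was sequenced by the authors as paired reads from stranded mRNA libraries, 2 per sample. The deposited tables hold RPKM, which the authors made for genes and for transcripts from trimmed reads on GRCh38. Per the labels, the submitters' processing notes name CASAVA 2.0, and the aligner, the annotation and the counting are not given in the sources used here, nor whether a read or a pair was counted. File starts count from 0 and were raised by 1.

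Mapped reads per library were recovered as the total that made RPKM values of single-exon genes whole reads, and lengths as the smallest that did so for a gene. This gave whole reads, within 0.01, for 14943 of the 14944 genes with a value, a rule that genes with values in few libraries meet easily. The recovery was also run on simulated data, with the outcome not reported here. Depth limits the precision of low genes such as REL, and intervals (95%, exact binomial) cover counting error only. Called means past 2-fold with 0.1 RPKM added, among 9521 genes of at least 1 RPKM. With n = 1 no test was made.

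The members and lists were chosen with earlier results of these data known. Named are all members with their transcripts, listed pathway genes past 2-fold the same way in both lines and otherwise the 4 of each list with the largest smaller ratio, and each member's nearest gene. A few listed genes are counted but not reported singly here. OTULIN was read under its older symbol FAM105B. Alternatives were the pseudocount, each library alone, median scaling, transcript sums, centring on length, the filter and 1.5-fold. Python 3.11.15, pandas 2.3.3, numpy 2.4.6 and scipy 1.17.1 were used.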

Additional observations from a re-analysis of the deposited data

Results flagged for a closer look

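Among listed pathway genes at 1 RPKM or more in each line, a pair had JQ1 libraries apart from DMSO in both lines, on opposite sides of it. The share of background genes with this pattern was not counted, so the pair is not read as more than any list would give. CD40, a receptor that activates both NF-kB pathways in B cells, had a log2 JQ1/DMSO ratio of -0.47 for SU-DHL-5 and of 0.18 for Toledo, a difference of 0.65. It read 7.60 and 6.86 RPKM with DMSO and 4.96 and 5.39 RPKM with JQ1 in SU-DHL-5, and 16.6 and 14.8 with DMSO and 17.4 and 18.2 with JQ1 in Toledo. IKBKB, which encodes a catalytic subunit of IKK, was at 0.03 for SU-DHL-5 and at -0.21 for Toledo, a difference of -0.24, and the counting interval of the first, -0.12 to 0.18, held 0. From the first libraries alone IKBKB was at -0.06 for Toledo, and its second Toledo library with DMSO is the one that stood apart by gene length. CCR7, a chemokine receptor, was left out since it had 7 reads with DMSO and 1 with JQ1 in SU-DHL-5. Neither difference was tested, since each line was 1 sample per condition.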

How the results depend on the processing

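At 1.5-fold in place of 2-fold, 1 member (NFKBIE) was below with JQ1 in each line, though not from the second libraries alone, and 5 members (NFKB1, NFKB2, NFKBIA, BCL3 and TNFAIP3) differed between the lines, NFKB1 not from the first libraries alone. NFKB2 was no longer past 2-fold between the lines with library 2 alone or centred on length, which left 2 members. The median of the members in SU-DHL-5 was -0.17 with library 1, -0.20 with library 2 and -0.083 centred on length, and in Toledo 0.0045, -0.0081 and -0.0078, and -0.0056 with median scaling. Of 210 member ratios under alternatives, 174 lay within the counting interval and 36 outside. A change of sign was found in 9, none of them of a called value. They were NFKB1, RELA and NFKBIZ in SU-DHL-5 with library 2, at 0.02, 0.04 and -0.28, NFKB1, RELB and TNFAIP3 in Toledo with library 1, at 0.07, -0.06 and 0.13, and RELA in Toledo with library 2, median scaling and length centring, at 0.02, 0.02 and 0.05. Over all 14944 genes with a value, 6.55% in SU-DHL-5 and 8.68% in Toledo cells were below 0.5 with JQ1. The own-line minimum of 1 RPKM and the single-library ratios of listed genes were added after seeing the data. No paired analysis was possible because each group held 1 sample. With 1 sample per group, the spread between cultures is unknown.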
